A study of Homo sapiens with 12 samples.

Results

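The PGC-1 family and the transcription factors that work with it were followed at the RNA level in 8 genes: the coactivators PPARGC1A (PGC-1α), PPARGC1B (PGC-1β) and PPRC1 (PGC-1-related coactivator), the nuclear factors NRF1, GABPA and ESRRA, and the mitochondrial factors TFAM and TFB2M. They were chosen by name, as well-known regulators of mitochondrial biogenesis, with earlier results of these data known. All 8 were among the 26058 genes listed, and all 8 were among the 22067 genes whose mean RPKM (a read count scaled for exon length and library size) reached 0.5, which were tested. HEK293 cells, a human embryonic kidney line (WT), and a derivative with CRISPR knockout of both catalytic AMPKα subunits, PRKAA1 and PRKAA2 (AMPK KO), were serum starved for 24 h. Each line was given DMSO (the solvent), DMSO with a pulse of EGF (epidermal growth factor) over the last 30 min, or cordycepin at 25 µM with the same EGF pulse, and most labels put the whole treatment at 50 min. Cordycepin is an analogue of adenosine without its 3′ hydroxyl group, and its monophosphate resembles AMP. The authors describe its triphosphate as ending the growing A tail of RNA (polyadenylation), but not pre-mRNA synthesis as a whole in intact cells. There were 2 libraries in each of the 6 groups, numbered 2 and 3.

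Each genotype was represented by a single line, so an effect of the knockout and any other difference between the lines cannot be told apart. The EGF concentration was labelled 15 with conflicting units, the serum in the starvation medium was stated differently in different places, and the time in DMSO alone was given as 50 min in one label and shorter in another. Replicate 1 of every condition was discarded by the authors as an outlier and was not analysed here. PRKAA1 RNA was still present in the knockout line but lower, at 7.49 ± 0.173 RPKM against 18.7 ± 4.58 RPKM in WT cells given DMSO alone (SD, n = 2; log2 difference -1.26, limma adjusted p 0.0228). PRKAA2 was at 5.8 ± 0.35 against 10.0 ± 2.9 RPKM in DMSO. In cordycepin+EGF the lines were closer. There PRKAA1 was at 7.77 ± 1.04 against 11.2 ± 0.106 RPKM, and PRKAA2 at 6.41 ± 1.4 against 7.04 ± 0.363 RPKM. EGR1, an immediate early gene, went from 2.51 to 219 RPKM with EGF in WT cells and from 2.27 to 107 RPKM in AMPK KO cells. Reads recovered from the RPKM values numbered 3806335 in WT DMSO replicate 3 and 12016743 to 25104904 in the other libraries. HEK293 markers were present (VIM at 49.1 to 82.3 RPKM, KRT18 at 11.7 to 18.5 RPKM and NEFL at 12.4 to 33.6 RPKM), although PAX2 (0.113 to 0.851 RPKM) and NEFM (0 to 0.342 RPKM) were low, and of the markers of other cell types the leukocyte gene PTPRC did not exceed 0.061 RPKM and the fibroblast gene COL1A1 was at 0.353 to 1.21 RPKM. COL1A1 was lower in AMPK KO than in WT cells with DMSO+EGF (0.390 against 1.20 RPKM, limma adjusted p 0.0499), and its part in the differences between the lines was not tested.

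The 3 coactivators bind no DNA themselves and are recruited by transcription factors, among them NRF1, the ETS factor GABP (of which GABPA is the DNA-binding subunit) and the orphan nuclear receptor ERRα (the product of ESRRA). These nuclear factors switch on genes of the respiratory chain and of the mitochondrial DNA machinery, including TFAM, which packages mitochondrial DNA and opens its promoters, and TFB2M, which lets the mitochondrial RNA polymerase start transcription. AMPK is known to act on PGC-1α in muscle and other tissues, both through phosphorylation of the protein and through the level of its RNA. Bulk RNA gives a mean over cells, so fewer cells of a kind and less RNA per cell cannot be told apart.

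To show where these factors meet in the DNA, the 130 bases before the RefSeq transcription start (GRCh38.p14) are given for the genes whose values differed most between groups and for TFAM. Capitals mark a match, on either strand, to an NRF1 core (CGCANGCG, N being any base) or to an ETS site of the kind GABP binds (CCGGAAGT), letters that do not overlap each other.
PPRC1 (chr10:102132910-102133039, plus strand): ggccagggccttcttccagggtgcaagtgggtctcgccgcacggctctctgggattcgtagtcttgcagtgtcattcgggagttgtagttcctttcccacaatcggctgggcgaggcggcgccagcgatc
PPARGC1A (chr4:23881102-23881231, minus strand): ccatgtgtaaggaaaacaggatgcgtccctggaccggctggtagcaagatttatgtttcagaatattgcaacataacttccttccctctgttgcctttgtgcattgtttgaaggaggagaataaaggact
ESRRA (chr11:64305394-64305523, plus strand): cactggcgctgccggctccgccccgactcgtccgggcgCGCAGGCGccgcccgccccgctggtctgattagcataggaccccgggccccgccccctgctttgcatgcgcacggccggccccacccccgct
GABPA (chr21:25734842-25734971, plus strand): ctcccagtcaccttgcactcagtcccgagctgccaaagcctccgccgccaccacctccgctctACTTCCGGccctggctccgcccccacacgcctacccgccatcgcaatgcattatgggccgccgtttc
TFAM (chr10:58385280-58385409, plus strand): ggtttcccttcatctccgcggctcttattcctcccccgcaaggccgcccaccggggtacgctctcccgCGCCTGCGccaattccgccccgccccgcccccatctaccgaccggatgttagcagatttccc
TFB2M (chr1:246566262-246566391, minus strand): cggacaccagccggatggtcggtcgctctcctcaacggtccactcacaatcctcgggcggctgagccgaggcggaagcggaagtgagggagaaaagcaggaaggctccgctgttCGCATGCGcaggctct
The NRF1 core was found in the windows of ESRRA, TFAM and TFB2M, beginning 92, 62 and 16 bases before the start, and in 10.0% of the 35116 RefSeq windows of 300 bases searched (250 before the start and 50 after it). The ETS site was found in the window of GABPA itself, 67 bases before the start, and in 4.14% of all windows. No member window held a cyclic AMP response element (TGACGTCA, 1.85% of all windows), an ERR element (AAGGTCA, 3.92%) or a CArG box, the site of serum response factor (1.29%). The windows of PPRC1 and of the PPARGC1A start shown held none of the motifs searched, which also took in the E-box CACGTG (7.26% of all windows) and the GC box GGGCGG (45.0%). RefSeq lists a further PPARGC1A start, whose window (chr4:24472906-24473035, minus strand, for its 130 bases) begins with an E-box, in capitals in gcgcgccCACGTGacggcc. That start lies outside the annotated gene used for counting (chromosome 4, 23755041 to 23904089). A letter match describes the sequence alone, and binding was not measured. The table had no entry for NRF1.

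Of the 8 genes, none passed an adjusted p under 0.05 in any of the comparisons with limma, a moderated linear model fitted over all genes tested. The clearest patterns were a higher PPARGC1A level in AMPK KO than in WT cells under all 3 treatments, a PPRC1 level that was highest in WT cells given EGF without cordycepin, and an ESRRA level that was higher with cordycepin in WT cells and, less clearly, lower with cordycepin in AMPK KO cells. PPARGC1B, GABPA, TFAM and TFB2M had their lowest group means in AMPK KO cells given cordycepin, and only for TFB2M did both of these libraries lie below all others. Below, "higher" and "lower" describe values, and a difference is called only where it passed the adjusted test.

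**Figure D1:**
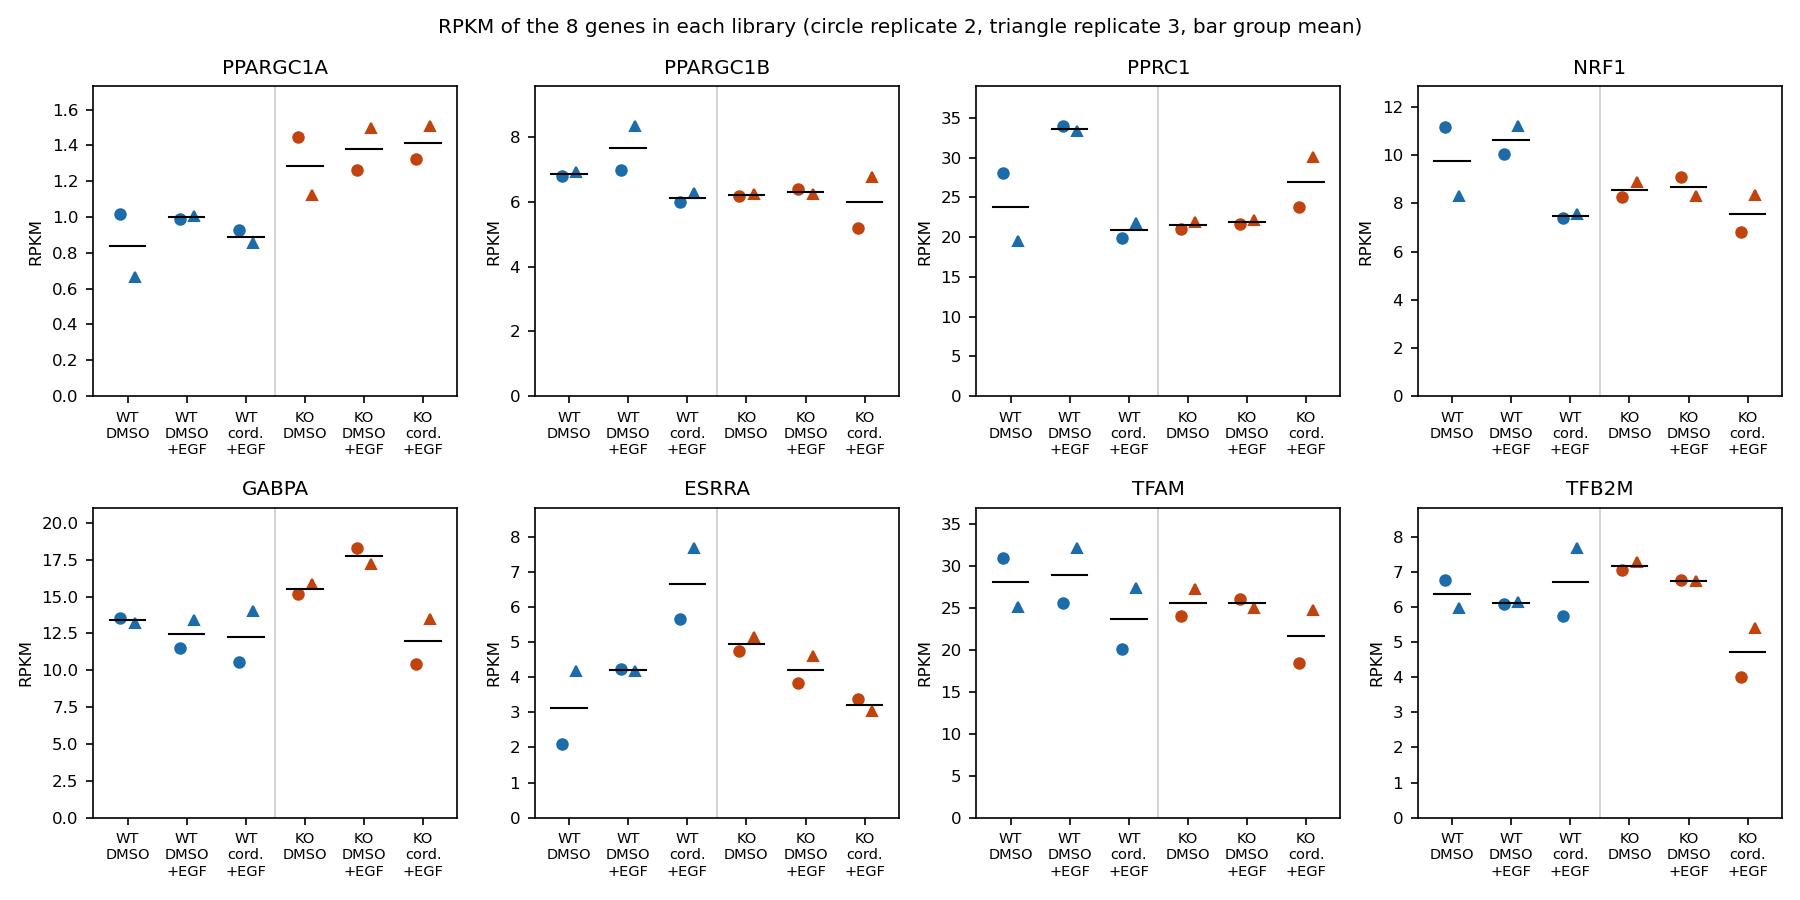
RPKM (y axis, linear, from 0) of each of the 8 genes in each of the 12 libraries, by group (x axis; WT in blue, AMPK KO in orange, cord. for cordycepin); circles are replicate 2, triangles replicate 3 and bars the mean of the 2 libraries. All 6 AMPK KO libraries lie above all 6 WT libraries for PPARGC1A, from 1.12 to 1.51 RPKM against 0.663 to 1.02 RPKM, while the lines overlap for the other 7 genes.

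Levels per length spanned a wide range between the genes. TFAM and PPRC1 were the most abundant, with means over the 12 libraries of 25.5 and 24.8 RPKM, followed by GABPA at 13.9, NRF1 at 8.79, PPARGC1B at 6.53, TFB2M at 6.31 and ESRRA at 4.39 RPKM. PPARGC1A, the founding member of the family, was the least abundant at 1.14 RPKM. These means rested on 43 to 3425 recovered reads per library for the 2 mitochondrial factors and on 29 to 310 reads for PPARGC1A. ESRRA varied most, with a 3.65-fold range between its lowest and highest library, and PPARGC1B least, with a 1.60-fold range. Genes with close copies or overlapping neighbours were less certain, since the strand setting used in counting was not stated, and those are given beside their values.

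The first comparison asked what EGF did to these genes. In WT cells, 0 of 8 passed the adjusted test, against 0.0227% of all genes tested, and 1 of 8 (PPRC1) had an unadjusted p under 0.05, against 9.72%. The 2 groups did not overlap for 3 of 8 genes, all higher with EGF (PPARGC1B, PPRC1 and ESRRA), against 36.5% of all genes in either direction. For ESRRA this rested on WT DMSO replicate 2, since the other WT DMSO library was at 4.17 RPKM and the lower EGF library at 4.18 RPKM. In AMPK KO cells 0 of 8 passed the adjusted test (0.0136% of all genes) and 0 of 8 had an unadjusted p under 0.05 (2.42%), while 3 of 8 did not overlap (38.5%): GABPA was higher and ESRRA and TFB2M were lower with EGF. The test of the difference in the EGF effect between the lines gave 0 of 8 at an adjusted p under 0.05 (0% of all genes) and 0 of 8 at an unadjusted p under 0.05 (8.69%). These counts were near the background shares.

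The effect of cordycepin was read between cordycepin+EGF and DMSO+EGF. In WT cells 0 of 8 genes passed the adjusted test (0.00453% of all genes) and 3 of 8 had an unadjusted p under 0.05 (16.0%): PPRC1 and NRF1, lower with cordycepin, and ESRRA, higher. The groups did not overlap for 5 of 8 (53.5%), namely these 3 with PPARGC1A and PPARGC1B, both lower with cordycepin. In AMPK KO cells 0 of 8 passed (0.471%), 2 of 8 had an unadjusted p under 0.05 (GABPA and TFB2M, both lower, 21.8% of all genes), and 5 of 8 did not overlap (59.2%): PPRC1 was higher, and ESRRA, GABPA, TFAM and TFB2M were lower. For the difference in the cordycepin effect between the lines, 0 of 8 passed the adjusted test (0%) and 4 of 8 had an unadjusted p under 0.05 (PPRC1, ESRRA, TFB2M and GABPA), against 21.4% of all genes.

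AMPK KO and WT cells were compared under each treatment. In DMSO 0 of 8 passed (0.440% of all genes), 1 of 8 (ESRRA, higher in AMPK KO) had an unadjusted p under 0.05 (21.3%) and 5 of 8 did not overlap (48.5%). In DMSO+EGF 0 of 8 passed (1.74%), 2 of 8 (PPRC1 lower and GABPA higher in AMPK KO) had an unadjusted p under 0.05 (22.5%) and 6 of 8 did not overlap (62.8%). In cordycepin+EGF 0 of 8 passed (0.118%), 3 of 8 (PPARGC1A higher, ESRRA and TFB2M lower in AMPK KO) had an unadjusted p under 0.05 (13.7%) and 4 of 8 did not overlap (45.6%). Over the 3 treatments together, a comparison added after the values were seen, 0 of 8 passed (4.34%) and 2 of 8 (PPARGC1A and GABPA, both higher in AMPK KO) had an unadjusted p under 0.05 (20.4%).

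PPARGC1A encodes PGC-1α, the coactivator best known for driving mitochondrial biogenesis in muscle, brown fat and fasted liver. In WT cells its RPKM in replicates 2 and 3 was 1.02 and 0.663 in DMSO, 0.990 and 1.01 in DMSO+EGF, and 0.925 and 0.855 in cordycepin+EGF. The AMPK KO libraries were at 1.45 and 1.12 in DMSO, 1.26 and 1.50 in DMSO+EGF, and 1.33 and 1.51 in cordycepin+EGF. Every AMPK KO library was thus above every WT library, a pattern shown in this direction by 358 of the 22067 genes tested, or 1.62%. The WT mean was 0.909 ± 0.135 RPKM and the AMPK KO mean 1.36 ± 0.152 RPKM (SD, n = 6 libraries of 3 treatments each).

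Over the 3 treatments the log2 difference of PPARGC1A was 0.41 (SE 0.113, limma adjusted p 0.0840, unadjusted p 0.00585). This comparison was added after the libraries of the lines were seen to lie apart. Within a treatment the difference reached an unadjusted p under 0.05 in cordycepin+EGF (log2 difference 0.48, SE 0.196, limma adjusted p 0.340). With voom, a weighted linear model on the recovered reads, the adjusted p over the 3 treatments was 0.00996. WT DMSO replicate 3 held only 29 PPARGC1A reads. An antisense lncRNA in the same locus, ENSG00000249453, was at 0.441 to 2.47 RPKM and shares no annotated exon base with PPARGC1A.

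PPARGC1B encodes PGC-1β, which supports basal respiration and lipid metabolism. Its levels lay close together, at 5.20 to 8.33 RPKM over the 12 libraries. The highest group mean was in WT DMSO+EGF (7.66 ± 0.960 RPKM; SD, n = 2) and the lowest in AMPK KO cordycepin+EGF (5.99 ± 1.11 RPKM; SD, n = 2), where the 2 libraries differed by more than the WT and AMPK KO means in DMSO did. No PPARGC1B comparison had an unadjusted p under 0.05. The gene also hosts the microRNA gene MIR378A, which was not analysed here.

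PPRC1 encodes the family member known to respond early when serum is added to resting cells. In WT cells it was at 28.1 and 19.5 RPKM in DMSO, 33.9 and 33.4 RPKM in DMSO+EGF, and 19.9 and 21.8 RPKM in cordycepin+EGF. The WT DMSO+EGF libraries were the 2 highest of all 12 and did not overlap any other group. The AMPK KO values were 21.1 and 21.9 RPKM in DMSO, 21.6 and 22.2 RPKM in DMSO+EGF, and 23.7 and 30.1 RPKM in cordycepin+EGF, so the last group was the highest of that line.

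The log2 difference of PPRC1 with EGF in WT cells was 0.48 (SE 0.170, limma adjusted p 0.489), and with cordycepin it was -0.63 (SE 0.170, limma adjusted p 0.262). In AMPK KO cells the EGF difference was 0.04 and the cordycepin difference 0.33, neither with an unadjusted p under 0.05. AMPK KO cells were below WT cells in DMSO+EGF by -0.59 (SE 0.170, limma adjusted p 0.0954). The cordycepin effect differed between the lines by 0.96 (SE 0.241, 95% interval 0.42 to 1.51, limma adjusted p 0.122, unadjusted p 0.00310). These calls turned on the fit: voom gave adjusted p-values of 0.0319 for cordycepin in WT, 0.0286 for the lines in DMSO+EGF and 0.0184 for the difference between the lines. The log2 difference with EGF in WT was 0.75 without WT DMSO replicate 2 and 0.22 without WT DMSO replicate 3.

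**Figure D2:**
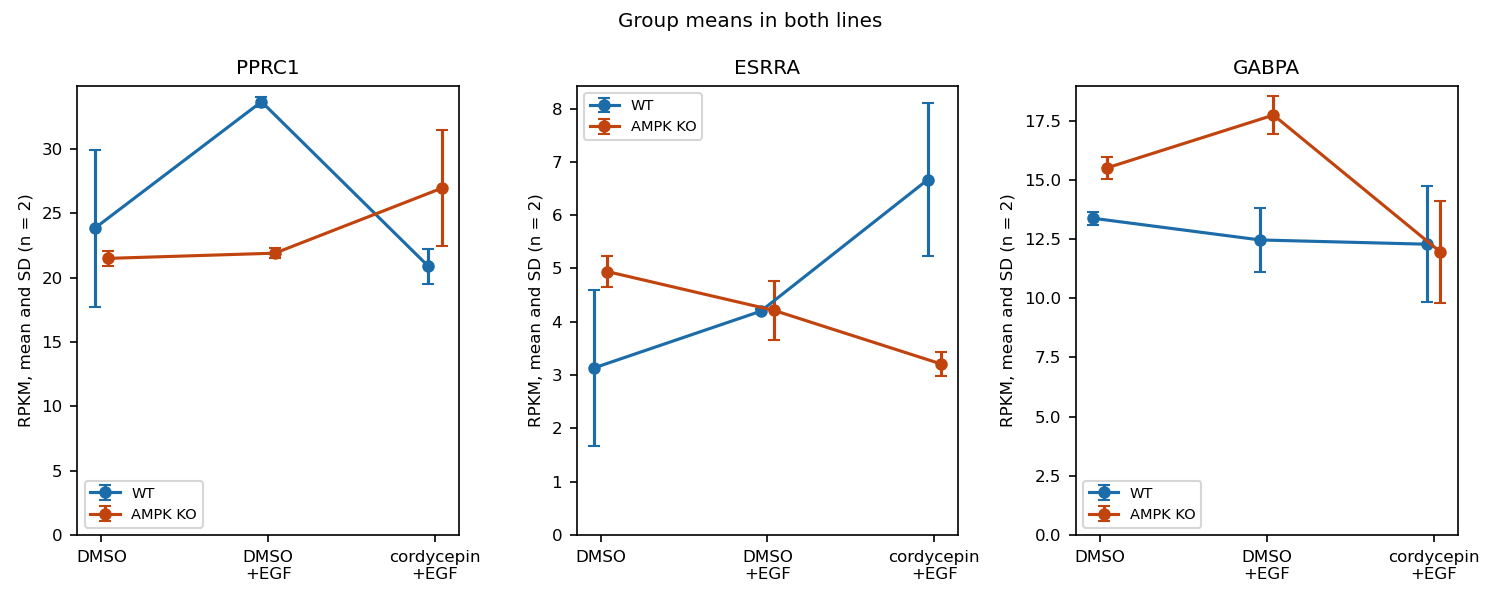
Group means of PPRC1, ESRRA and GABPA in RPKM (y axis, linear, from 0) under the 3 treatments (x axis), in WT (blue) and AMPK KO cells (orange); error bars are the SD of 2 libraries. PPRC1 stood at 33.7 RPKM in WT DMSO+EGF against 20.9 to 26.9 RPKM in the other groups, ESRRA means moved in opposite directions in the lines with cordycepin (6.66 against 3.21 RPKM), and GABPA was highest in AMPK KO DMSO+EGF at 17.7 RPKM.

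NRF1, the nuclear respiratory factor that binds the core shown above, had the same direction with cordycepin in both lines. In WT cells it was at 11.2 and 8.32 RPKM in DMSO, 10.1 and 11.2 RPKM in DMSO+EGF, and 7.40 and 7.55 RPKM in cordycepin+EGF. The cordycepin libraries lay below all other WT libraries, with a log2 difference from DMSO+EGF of -0.44 (SE 0.156, limma adjusted p 0.277). In AMPK KO cells the cordycepin+EGF libraries, at 6.81 and 8.34 RPKM, reached the range of the DMSO+EGF libraries (9.11 and 8.30 RPKM). The groups therefore overlapped in that line, and neighbours in the order of the 6 group means overlapped throughout. A lncRNA on the same strand within the NRF1 locus, ENSG00000288881, was at 1.30 to 3.18 RPKM and shares no exon base with it. The rRNA pseudogene RNA5SP244 on the same strand, all 112 exon bases of which lie in NRF1 exons, was not analysed here.

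GABPA encodes the ETS-domain subunit of GABP, also known as nuclear respiratory factor 2. Its WT libraries lay between 10.6 and 14.0 RPKM, with group means of 13.4, 12.5 and 12.3 RPKM in DMSO, DMSO+EGF and cordycepin+EGF. The AMPK KO libraries were at 15.2 and 15.8 RPKM in DMSO, 18.3 and 17.2 RPKM in DMSO+EGF, and 10.4 and 13.5 RPKM in cordycepin+EGF. Without cordycepin all 4 AMPK KO libraries were above all 6 WT libraries, and with cordycepin the ranges of the lines overlapped.

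The GABPA log2 difference with cordycepin in AMPK KO cells was -0.51 (SE 0.155, limma adjusted p 0.117), and AMPK KO cells were above WT cells in DMSO+EGF by 0.51 (SE 0.155, limma adjusted p 0.106). The cordycepin effect differed between the lines by -0.53 (SE 0.219, limma adjusted p 0.212; -0.35 without WT cordycepin+EGF replicate 3), and over the 3 treatments the lines differed by 0.23 (SE 0.0894, limma adjusted p 0.196). With voom the first and the second of these had adjusted p-values of 0.0489 and 0.0444. GABPA values are uncertain: the processed pseudogene GABPAP, a near copy, was listed at 14.6 to 35.9 RPKM, and ATP5PF on the opposite strand shares 692 exon bases and was listed at 15.7 to 36.7 RPKM. In EGF-treated AMPK KO cells the GABPAP mean was 31.1 RPKM without and 19.2 RPKM with cordycepin (log2 difference -0.65, limma adjusted p 0.234). The same means of ATP5PF were 35.9 and 28.1 RPKM (log2 difference -0.31, limma adjusted p 0.489). The part of shared reads in the GABPA values was not tested.

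ESRRA encodes ERRα, a nuclear receptor without a known natural hormone that depends on PGC-1 coactivators. In WT cells it was at 2.10 and 4.17 RPKM in DMSO, 4.22 and 4.18 RPKM in DMSO+EGF, and 5.65 and 7.68 RPKM in cordycepin+EGF. Both WT cordycepin libraries were above all 10 other libraries of the study. The knockout line was at 4.74 and 5.15 RPKM in DMSO, 3.82 and 4.60 RPKM in DMSO+EGF, and 3.37 and 3.05 RPKM in cordycepin+EGF, so the cordycepin libraries were the lowest of that line.

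With cordycepin the log2 difference of ESRRA was 0.63 in WT cells (SE 0.255, limma adjusted p 0.290), and the lines differed in this effect by -0.93 (SE 0.361, 95% interval -1.75 to -0.12, limma adjusted p 0.190). AMPK KO cells were above WT cells in DMSO by 0.62 (SE 0.255, limma adjusted p 0.210) and below them in cordycepin+EGF by -0.92 (SE 0.255, limma adjusted p 0.237). The DMSO difference was 1.04 without WT DMSO replicate 3 and 0.21 without replicate 2, which carry 52 and 111 ESRRA reads. With all libraries voom put the DMSO difference at an adjusted p of 0.0447 and the cordycepin+EGF difference at 0.0399. TRMT112, a methyltransferase partner gene on the opposite strand, shares 284 exon bases with ESRRA and was listed at 21.2 to 45.0 RPKM. Its means were 36.0 RPKM in WT and 24.3 RPKM in AMPK KO cordycepin+EGF, a log2 difference of -0.50 (limma adjusted p 0.412), and its part in the ESRRA values was not tested. The pseudogenes ESRRAP1 and ESRRAP2 were not analysed here.

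TFAM, the packaging and transcription factor of mitochondrial DNA, was the most abundant of the 8 genes. Its libraries ran from 18.4 to 32.1 RPKM, and the SD within a group reached 21.8% of its mean. The lowest group means were those with cordycepin, at 23.7 ± 5.17 RPKM in WT and 21.6 ± 4.48 RPKM in AMPK KO cells (SD, n = 2), against 28.8 ± 4.61 and 25.5 ± 0.816 RPKM with EGF alone. No TFAM comparison had an unadjusted p under 0.05, and neighbours in the order of its 6 group means overlapped throughout. The pseudogenes TFAMP1 and TFAMP2 were not analysed here.

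TFB2M encodes the initiation partner of the mitochondrial RNA polymerase. In WT cells it was at 6.78 and 5.99 RPKM in DMSO, 6.08 and 6.13 RPKM in DMSO+EGF, and 5.75 and 7.69 RPKM in cordycepin+EGF. Its AMPK KO values were 7.07 and 7.28 RPKM in DMSO, 6.77 and 6.74 RPKM in DMSO+EGF, and 4.02 and 5.42 RPKM in cordycepin+EGF, the lowest 2 of all 12 libraries. The log2 difference with cordycepin in AMPK KO cells was -0.44 (SE 0.165, limma adjusted p 0.173), AMPK KO cells were below WT cells in cordycepin+EGF by -0.45 (SE 0.165, limma adjusted p 0.305), and the cordycepin effect differed between the lines by -0.60 (SE 0.234, limma adjusted p 0.192). Without AMPK KO cordycepin+EGF replicate 2 the first of these was -0.26 and the second -0.26, and without WT cordycepin+EGF replicate 3 the second was -0.27. The AMPK KO cordycepin values rested on 105 and 183 reads.

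**Figure D3:**
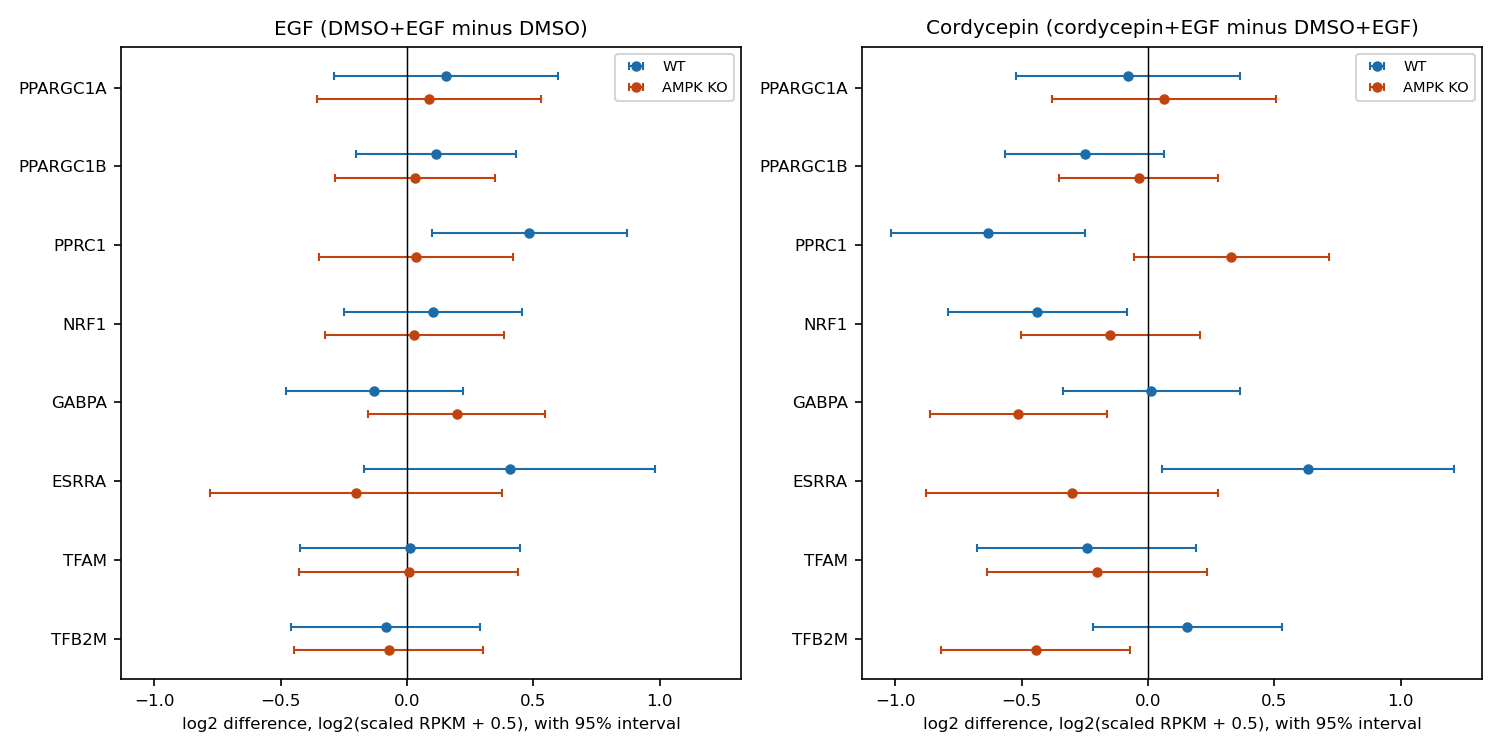
Log2 differences (x axis, on the log2(scaled RPKM + 0.5) scale) of the 8 genes (y axis) with EGF (left) and with cordycepin (right), in WT (blue) and AMPK KO cells (orange); points are limma estimates and bars 95% intervals before any adjustment. With cordycepin PPRC1 was at -0.63 in WT and above 0 in AMPK KO cells, ESRRA at 0.63 in WT and below 0 in AMPK KO cells, and none of the 8 genes passed an adjusted p under 0.05.

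In 3 of the 6 groups the median difference of the 8 genes between the replicates stood away from 0. In AMPK KO cordycepin+EGF 7 of 8 were higher in replicate 3 than in replicate 2, with a median log2 difference of 0.33 against -0.00188 over all genes tested, of which 49.8% were higher. In WT cordycepin+EGF 6 of 8 were higher in replicate 3 (median 0.23; 47.8% of all genes), and in WT DMSO 2 of 8 were higher (median -0.24; 47.5% of all genes), replicate 3 being the shallowest library. In the other groups the medians were near 0: 5 of 8 were higher in WT DMSO+EGF (median 0.06), 6 of 8 in AMPK KO DMSO (0.03) and 3 of 8 in AMPK KO DMSO+EGF (-0.02). The part of these replicate differences in the group means was not tested.

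Across the 12 libraries, the pairs most alike were NRF1 with TFAM (Pearson r 0.81), NRF1 with PPARGC1B (0.78) and PPARGC1B with TFAM (0.76), and the pair least alike was ESRRA with NRF1 (-0.55). PPARGC1A followed none of the other 7 genes closely (-0.36 to 0.34). Among 18783 genes whose mean reached 1 RPKM, the 2 most like each member were GNAI2 and DIS3L2 for PPARGC1A (r 0.96 and 0.94), PREP and KIF13A for PPARGC1B (0.93 and 0.93), PRCC and GTPBP2 for PPRC1 (0.97 and 0.97), KLHL15 and ZNHIT6 for NRF1 (0.96 and 0.96), RAB11A and CNBP for GABPA (0.97 and 0.96), DDT and PUSL1 for ESRRA (0.97 and 0.97), TFDP2 and H2AZ2 for TFAM (0.96 and 0.96), and FBH1 and BMT2 for TFB2M (0.95 and 0.94). PPRC1 had 246 genes with r over 0.9 and PPARGC1B had 7. These correlations describe 12 libraries that share groups, scaling and depth.

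The partners and regulators of the PGC-1 coactivators were followed next: GABP β subunits, nuclear receptors, the deacetylase SIRT1, acetyltransferases, CREB coactivators and the FLCN and TFE3 branch. Of 32 genes 30 were tested. With cordycepin in AMPK KO cells 0 of 30 passed the adjusted test, 22 were below 0 and 8 above, and the median log2 difference was -0.14, against 0.06 over all genes, of which 44.9% were below 0. In WT cells 14 were below 0 and 16 above (median 0.05, all genes 0.03). The lowest unadjusted p-values with EGF or cordycepin in either line all came from cordycepin in AMPK KO cells. SIRT1, a deacetylase of PGC-1α, was at 28.0 ± 0.407 RPKM without and 16.7 ± 1.04 RPKM with cordycepin (log2 difference -0.68, limma adjusted p 0.0680; SD, n = 2). TFE3, a transcription factor of lysosome and energy genes, was at 16.3 ± 1.56 and 9.67 ± 0.177 RPKM (-0.68, limma adjusted p 0.108), and FNIP1, a partner of folliculin, at 8.47 ± 0.231 and 6.29 ± 0.492 RPKM (-0.36, limma adjusted p 0.120).

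The machinery that transcribes, processes and copies mitochondrial DNA was represented by 29 genes, all tested. With cordycepin in AMPK KO cells 22 were below 0 and 7 above, with a median of -0.17, and 0 passed. In WT cells 11 were below 0 and 18 above (median 0.10), and the median of the difference between the lines was -0.26 (all genes 0.02). FASTKD5, which processes mitochondrial transcripts, was higher in AMPK KO than in WT cells in DMSO+EGF, at 14.2 ± 0.202 against 10.1 ± 0.533 RPKM (SD, n = 2; log2 difference 0.48, limma adjusted p 0.0499). There 1 of 29 genes passed, against 1.74% of all genes. FASTKD5 was the only gene of the 5 pathway lists to pass in a comparison within 1 treatment or line. Over the EGF and cordycepin comparisons it had the 3 lowest unadjusted p-values of the list, with log2 differences of -0.42 for cordycepin in AMPK KO cells (adjusted p 0.0767), 0.34 for cordycepin in WT cells (adjusted p 0.267) and -0.35 for EGF in WT cells (adjusted p 0.438). Over the 3 treatments MTERF4 (0.54, adjusted p 0.00835) and FASTKD2 (0.42, adjusted p 0.0325), both acting on mitochondrial RNA and ribosomes, were higher in AMPK KO cells, and PRIMPOL, a primase that restarts stalled replication (-0.57, adjusted p 0.0113), was lower. Of the 29 genes 2 were thus called higher and 1 lower, against 4.34% of all genes in either direction.

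Textbook targets of NRF1 and GABP, mostly nuclear genes of the respiratory chain and of mitochondrial import, numbered 34, all tested. With cordycepin in AMPK KO cells 30 were below 0 and 4 above, with a median of -0.24. At an unadjusted p under 0.05, 10 were lower and 1 was higher, against 10.1% lower and 11.7% higher among all genes, and 0 passed the adjusted test. In WT cells 11 were below 0 and 23 above (median 0.09). MRPL12, a mitochondrial ribosomal protein gene, was at 4.33 ± 0.549 RPKM in WT DMSO and 10.3 ± 1.60 RPKM in WT DMSO+EGF (log2 difference 1.13, limma adjusted p 0.417; SD, n = 2). With cordycepin in AMPK KO cells SURF1, a complex IV assembly gene, went against its list, at 9.16 ± 0.485 RPKM without and 15.5 ± 0.686 RPKM with cordycepin (0.77, limma adjusted p 0.0644), and TOMM70, an import receptor gene, was at 29.4 ± 1.68 and 18.6 ± 2.77 RPKM (-0.60, limma adjusted p 0.114). Over the 3 treatments the complex I gene NDUFS1 was higher in AMPK KO cells (0.60, limma adjusted p 0.0215), so 1 of 34 genes passed, against 4.34% of all genes.

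**Figure D4:**
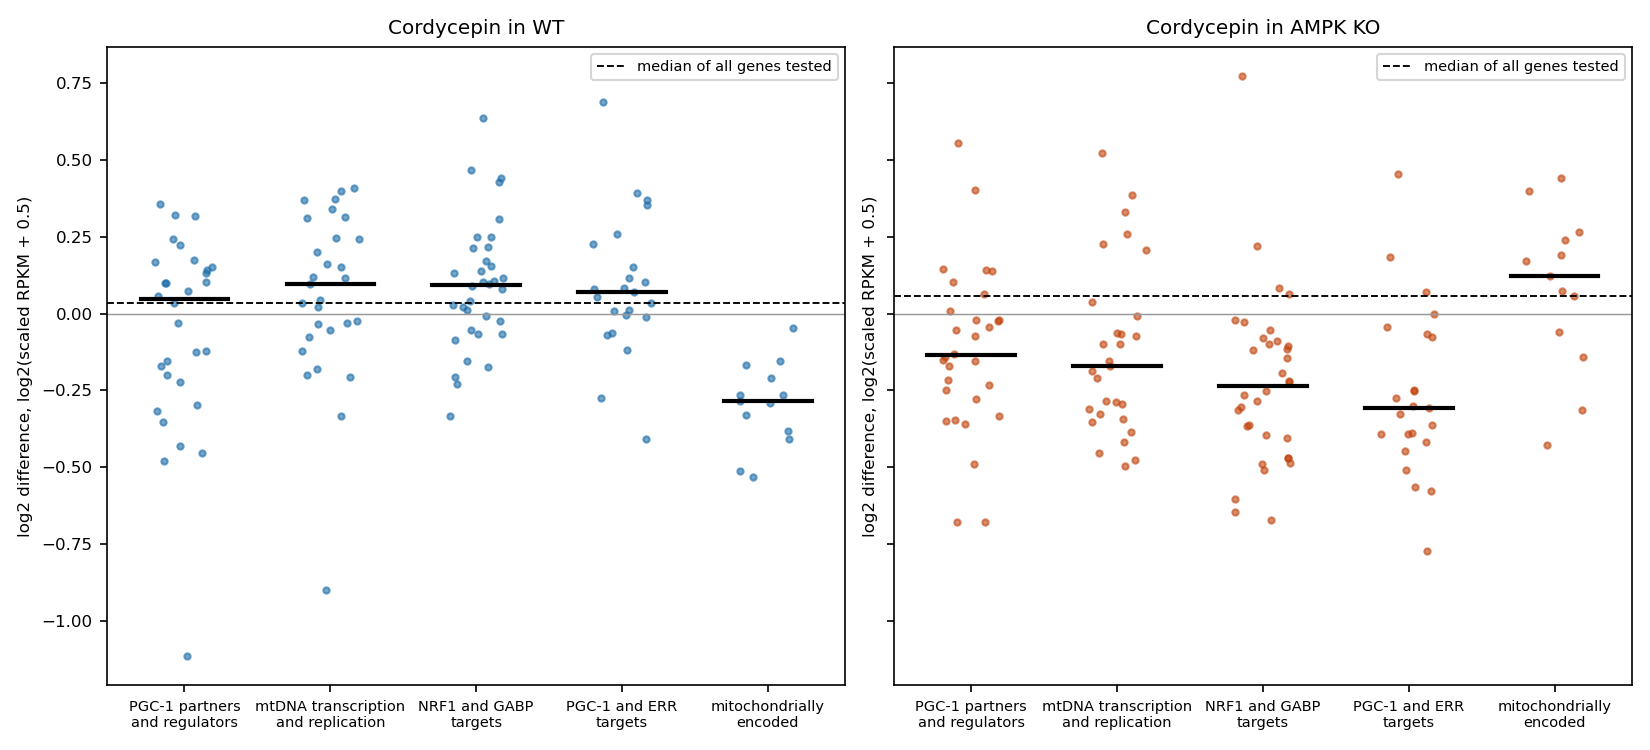
Log2 differences with cordycepin (y axis, on the log2(scaled RPKM + 0.5) scale) in WT (left) and AMPK KO cells (right) for each tested gene of 5 lists (x axis, points spread sideways for visibility); thick bars are list medians and the dashed line the median of all genes tested. In AMPK KO cells the medians of the first 4 lists lay at -0.14, -0.17, -0.24 and -0.31, below the dashed line at 0.06, and in WT cells between 0.05 and 0.10.

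Textbook targets of PGC-1 and ERR in metabolism, mitochondrial fusion and oxidant defence gave 23 tested genes of 25. With cordycepin in AMPK KO cells 20 were below 0 and 3 above (median -0.31), and in WT cells 7 were below 0 and 16 above (median 0.07). At an unadjusted p under 0.05, 9 were lower and 1 was higher in AMPK KO cells, against 10.1% lower and 11.7% higher among all genes, and 0 passed the adjusted test in either line. OPA1, the fusion GTPase of the inner membrane, was at 22.8 ± 0.927 RPKM without and 14.8 ± 1.18 RPKM with cordycepin in AMPK KO cells given EGF (log2 difference -0.56, limma adjusted p 0.0853; SD, n = 2). NAMPT, an enzyme of NAD synthesis, was at 6.09 ± 0.00871 and 4.38 ± 0.106 RPKM (-0.39, limma adjusted p 0.116), and PRDX5, a peroxiredoxin, at 38.7 ± 2.36 and 21.8 ± 2.77 RPKM (-0.77, limma adjusted p 0.121). UCP2, a carrier of the inner membrane, was higher in AMPK KO cells over the 3 treatments (0.59, limma adjusted p 0.00891). In that comparison 1 of 23 genes of this list and 0 of 30 partners passed, against 4.34% of all genes.

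The counts below 0 with cordycepin in AMPK KO cells were smaller without replicate 2 of the cordycepin+EGF group, and the medians were nearer 0. Then 18 of 30 partners, 21 of 29 machinery genes, 27 of 34 NRF1 and GABP targets and 17 of 23 PGC-1 and ERR targets were below 0. Their medians were -0.11, -0.16, -0.13 and -0.22 (all genes 0.03). Without replicate 3 the medians were -0.21, -0.21, -0.37 and -0.36. The counts at an unadjusted p under 0.05 also fell without replicate 2, and they are not given for a group left with a lone library. In DMSO+EGF, the reference of these comparisons, the list medians were higher in AMPK KO than in WT cells, by 0.09, 0.15, 0.09 and 0.20 (all genes -0.005). There 20, 19, 20 and 19 genes of these lists were higher in AMPK KO cells, and 10, 10, 14 and 4 were lower. Each list shares its libraries with the others, and none of its counts was tested as a set.

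The 13 protein genes of mitochondrial DNA are transcribed with the help of TFAM and TFB2M. With EGF 13 of 13 were above 0 in AMPK KO cells (median 0.43) and 2 of 13 in WT cells (median -0.16). The WT count turned on 1 library: 13 of 13 were above 0 without WT DMSO replicate 3 (median 0.33) and 0 of 13 without replicate 2 (median -0.60). With cordycepin 13 of 13 were below 0 in WT cells (median -0.28) and 4 of 13 in AMPK KO cells (median 0.12). The WT libraries spread widely: MT-ND2 was at 1436 ± 337 RPKM in DMSO+EGF and 1028 ± 554 RPKM in cordycepin+EGF (SD, n = 2; log2 difference -0.53, limma adjusted p 0.595). The WT cordycepin count was not refitted without either of its cordycepin libraries. None of the 13 had an unadjusted p under 0.05 in any comparison with all libraries. The lowest unadjusted p-values with EGF or cordycepin belonged to MT-ATP8 and MT-ND2, and MT-ND2 was at 1085 ± 59.8 RPKM without and 1598 ± 374 RPKM with EGF in AMPK KO cells (log2 difference 0.55, limma adjusted p 1; SD, n = 2). These genes are cut from shared transcripts and are not independent of each other.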

How the data were processed

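RNA of HEK293 WT and AMPK KO cells was measured by stranded, rRNA-depleted RNA-seq in 12 libraries (6 groups of 2, grouped from the sample labels). The authors aligned paired reads of 150 bases to GRCh38.p13 and made gene counts with Rsubread; the table deposited holds RPKM. The strand setting of the counting was not given in the sources used here. Gene IDs were matched to GENCODE release 44 (26029 of 26058 genes), and 2 rows that named no gene were left out. There were 0 columns without a sample. At the annotated exon length 25082 genes (96.4% of those matched) came out at whole numbers of reads in every library (tolerance 0.05), which gave the depths stated. Reads carry no molecular identifiers. The authors called the libraries biological replicates, but nothing in the labels said that replicates were separate cultures, so p-values measure the spread between these libraries.

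Levels are RPKM as deposited. For tests, RPKM was scaled by each library's upper quartile and taken as log2(scaled RPKM + 0.5), which understates changes of low genes, and genes averaging under 0.5 RPKM were dropped. Differences were tested two-sided in R 4.3.3 with limma 3.58.1 (eBayes, trended prior), from 1 fit of group means to 12 libraries, with Benjamini-Hochberg adjustment over all 22067 genes in each comparison. It was tested on simulated data. Members, lists and comparisons were chosen with earlier results of these data known. Effects of a member were given in full at an unadjusted p under 0.05. Of each other list, genes with an adjusted p under 0.05 and the 3 lowest unadjusted p-values over the EGF and cordycepin comparisons were named. Genes not found in the table or below the filter (ESRRG, SOD2, PERM1 and, among markers of other cells, ALB, PECAM1 and MYH7) were not analysed here. Alternatives were other pseudocounts, filters and scalings, a fit of only the groups compared, replicate blocks, leaving out each library and voom on the recovered reads. Sequences came from RefSeq (GRCh38.p14), which matched 7 of the 8 members, and were searched in Python 3.11.15.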

Additional observations from a re-analysis of the deposited data

Results flagged for a closer look

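For PPRC1 and ESRRA the libraries of WT and AMPK KO cells moved apart in opposite directions with cordycepin. Both WT libraries of PPRC1 were lower with cordycepin+EGF than with DMSO+EGF and both AMPK KO libraries were higher, and the difference between these effects was 0.96 on the log2 scale (limma adjusted p 0.122). Both WT libraries of ESRRA were higher and both AMPK KO libraries lower, with a difference of -0.93 (limma adjusted p 0.190). Such an opposite pattern was shown by 2 of the 8 genes and by 4037 of 22067 genes tested (18.3%), so the count of members was near the background share.

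With EGF the same held for ESRRA, whose WT libraries were higher and whose AMPK KO libraries were lower than with DMSO alone. The difference between these effects was -0.61, with an unadjusted p of 0.126 (limma adjusted p 0.64), and 10.3% of all genes tested showed an opposite pattern. It rested on WT DMSO replicate 2: without that library the EGF effect in WT was -0.01 and the difference between the lines -0.19 (limma adjusted p 0.726), and without WT DMSO replicate 3 they were 0.82 and -1.02 (limma adjusted p 0.306). None of these differences passed the adjusted test, and groups of 2 libraries could not be searched for outlying samples.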

How the results depend on the processing

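The 18 differences of single members with an unadjusted p under 0.05 kept their direction under all alternatives run, which included pseudocounts of 0.1 and 1, no filter, other scalings and leaving out each library. Whether a member passed an adjusted p under 0.05 depended on the fit. None passed in the reported fit. Voom on the recovered reads called 1 member for cordycepin in WT (PPRC1), 1 for cordycepin in AMPK KO (GABPA), 1 between the lines in DMSO (ESRRA), 2 in DMSO+EGF (PPRC1 and GABPA), 1 in cordycepin+EGF (ESRRA), 1 for the difference between the lines in the cordycepin effect (PPRC1) and 1 over the 3 treatments (PPARGC1A). Of the 22067 genes tested it called, in the same order, 979, 1311, 1744, 2367, 355, 1985 and 2269. A fit of only the groups compared called 2 members between the lines in DMSO+EGF (PPRC1 and GABPA) and 1 for the difference in the cordycepin effect (PPRC1), against 2215 and 1128 of all genes. Whether a member was called also depended on which library was left out. This held for EGF in WT, between the lines in DMSO, in DMSO+EGF and over the 3 treatments, and for the difference in the cordycepin effect. Calls over all genes changed as well, and their ranges are given below. The calls of members came without WT DMSO replicate 2 or 3, with the lone sample left assumed to vary like the other groups. The cause was not tested. WT DMSO replicate 3 was the shallowest library, and the part of depth was not tested.

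Over all genes, calls for cordycepin in WT numbered 1 in the reported fit, 0 with a pseudocount of 0.1, 2 with a pseudocount of 1, 0 in a fit of only the groups compared and 979 with voom. For cordycepin in AMPK KO the reported 104 became 50 with a pseudocount of 0.1, 234 without a filter, 0 with only the groups compared and 1311 with voom. Between the lines in DMSO the reported 97 became 188 without a filter, 1 with only the groups compared and 1744 with voom. In DMSO+EGF the reported 383 became 2215 with only the groups compared and 2367 with voom, and in cordycepin+EGF the reported 26 became 2 and 355. For EGF, only the groups compared gave 1 call in WT and 1 in AMPK KO, against 5 and 3. The difference in the cordycepin effect gave 0 in the reported fit, 1128 with only the groups compared and 1985 with voom, and the lines over the 3 treatments gave 957 and, with voom, 2269.

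With each library left out, calls over all genes ranged from 3 to 702 for EGF in WT, 1 to 4 for EGF in AMPK KO, 0 to 7 for cordycepin in WT and 0 to 1360 for cordycepin in AMPK KO. Between the lines they ranged from 5 to 3065 in DMSO, 6 to 2369 in DMSO+EGF, 4 to 76 in cordycepin+EGF and 305 to 2890 over the 3 treatments. For the difference between the lines they ranged from 0 to 13 for EGF and 0 to 2006 for cordycepin.

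Replicates share only a number, and with 2 numbers per group a pairing could not be established: replicate differences correlated with r of 0.136 to 0.314 between WT groups and of -0.122 to 0.0307 between AMPK KO groups. A replicate block over all libraries gave 0 calls for cordycepin in WT. A replicate block within each cell line gave 3 calls for EGF in WT, 5 for cordycepin in WT, 18 for cordycepin in AMPK KO, and 63 and 231 between the lines in DMSO and DMSO+EGF. With the numbers of AMPK KO DMSO+EGF crossed, an alternative added after seeing the data, the replicate block gave 331 for cordycepin in AMPK KO. No member was called under any replicate block.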
